A study of Mus musculus with 6 samples.

Results

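Genes for receptors that sense microbes, damaged cells, antibodies and sialic acids were compared in bone marrow of leukemic mice with and without a knockout of Papola, the gene of poly(A) polymerase alpha. They were taken by gene symbol from the deposited count table and comprise the C-type lectins (Clec genes), the Toll-like receptors, the NOD-like receptors (Nlrp, Nlrc, Nlrx and Nod genes), the Siglecs, the Fc receptors (Fcgr and Fcer genes), the leukocyte immunoglobulin-like receptors (Lilr and Pir genes), the TREM and CD300 families and the scavenger receptor gene Msr1. In all, 66 of the 9295 genes in the table matched. They fall into 21 C-type lectin genes, 9 Toll-like, 8 NOD-like, 7 CD300, 6 TREM, 6 leukocyte Ig-like, 4 Siglec and 4 Fc receptor genes and 1 scavenger receptor gene. The RefSeq annotation of mouse lists 110 protein-coding genes whose symbols match, and those outside the table were not analysed here.

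Of the 6 samples, 3 are labelled KO, with a genotype of Papola knockout, and 3 are labelled Con, with Papola flanked by recombination sites on both alleles. All come from bone marrow, carry the cell type label leukemia and are described as mice with acute myeloid leukemia. The labels name neither the Cre driver nor the leukemia model, give no age, strain, sex, sort or batch, and do not state whether each sample is its own animal. If several share an animal, a p-value below reflects technical spread among libraries alone. Counts per gene summed to 9768131, 9007499 and 8875021 in KO replicates 1 to 3 and to 11286196, 11436212 and 11253928 in Con replicates 1 to 3.

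Several facts of the whole series bear on every result. Papola itself had 339 ± 23.8 CPM in the KO-labelled and 291 ± 6.42 CPM in the Con-labelled libraries (SD, n = 3 each; log2 fold change 0.22, adjusted p = 0.0291 by edgeR), where CPM is counts scaled by library size and TMM factor. The count covers the whole gene and not a deleted part, so it does not check the labels, and every direction below rests on them alone. Con replicates 2 and 3 differed from each other far less than any other pair of a group (chi-square per degree of freedom 1.68, against 17.7 to 23.7 for the other pairs). Ptprc, the pan-leukocyte antigen CD45, stood at 1024 ± 122 and 461 ± 27.6 CPM in KO-labelled and Con-labelled libraries. Summed markers of erythroid cells stood at 16892 to 23998 CPM in KO-labelled and 73.0 to 132 CPM in Con-labelled libraries, with 9 of 9 higher. Markers of T and NK cells rose in 9 of 10 cases, Ncr1 being at 0 in the Con-labelled group. Their sum was nevertheless 117 to 150.0 CPM in KO-labelled and 249 to 424 CPM in Con-labelled libraries. Most of the Con-labelled sum was Gzmb, the 1 marker that fell, with 303 ± 96.7 CPM there and 7.10 ± 0.77 CPM in KO-labelled libraries. All 6 basophil and mast cell markers fell, with sums of 419 to 660.0 CPM in KO-labelled and 1774 to 2302 CPM in Con-labelled libraries. Of the markers that rose, 7 T and NK and 3 erythroid ones passed the low-count filter only through the KO-labelled group. So did 3 B lineage, 2 dendritic, 2 endothelial, 1 neutrophil, 1 macrophage and 1 eosinophil marker. Among the basophil and mast cell markers, 1 (Cma1) passed only through the Con-labelled group. A difference in all of these was built into the filter. Other marker lists are given beside receptors of their cell types. In RNA from whole marrow, fewer cells of a type and less RNA per cell cannot be told apart. Of the 8358 genes tested across the table, 82% passed an adjusted p of 0.05, 39.6% as higher and 42.4% as lower in the KO-labelled libraries, so a share of changed receptors near those values is no result about the receptors.

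These receptors are the means by which myeloid cells detect what is around them. C-type lectins bind sugars, lipids and proteins of fungi, mycobacteria and dying cells. Toll-like receptors detect microbial lipids, proteins and nucleic acids at the cell surface or in endosomes, and NOD-like receptors do so in the cytosol. Many of the surface receptors come in activating forms, which pair with adaptors that carry an activation motif (ITAM) such as DAP12 or the Fc receptor gamma chain and recruit the kinase SYK, and in inhibitory forms, which carry an inhibitory motif (ITIM) and recruit phosphatases. Several lie in chromosomal clusters of close relatives, among them the Clec4 and TREM clusters.

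The Clec4 and TREM clusters each held genes that rose and genes that fell, and for this reason the stretches upstream of 7 of their genes are shown first. Each is the run of 250 bases that ends just before the annotated start of the gene, from RefSeq on GRCm38.p6, printed 5′ to 3′ on the strand of the gene. Capitals mark GAGGAA or its reverse complement TTCCTC, the core letters of the binding motif of PU.1, a transcription factor of myeloid cells. The first 4 are neighbours in the Clec4 cluster, of which Clec4b1 and Clec4a2 rose and Clec4d and Clec4e fell in the KO-labelled libraries, and the last 3 are from the TREM cluster, of which Trem1 and Treml4 rose and Trem2 fell.
Clec4b1 (chr6:123049712-123049961, plus strand): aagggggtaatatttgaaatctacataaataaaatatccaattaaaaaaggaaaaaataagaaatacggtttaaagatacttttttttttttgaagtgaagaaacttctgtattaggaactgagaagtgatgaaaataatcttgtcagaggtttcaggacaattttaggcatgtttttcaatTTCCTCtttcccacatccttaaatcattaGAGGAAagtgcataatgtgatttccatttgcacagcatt
Clec4a2 (chr6:123122440-123122689, plus strand): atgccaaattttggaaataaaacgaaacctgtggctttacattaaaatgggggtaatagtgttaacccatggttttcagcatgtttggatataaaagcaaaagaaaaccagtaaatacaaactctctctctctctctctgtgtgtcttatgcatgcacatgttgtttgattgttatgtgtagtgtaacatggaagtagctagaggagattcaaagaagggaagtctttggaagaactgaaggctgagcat
Clec4d (chr6:123261857-123262106, plus strand): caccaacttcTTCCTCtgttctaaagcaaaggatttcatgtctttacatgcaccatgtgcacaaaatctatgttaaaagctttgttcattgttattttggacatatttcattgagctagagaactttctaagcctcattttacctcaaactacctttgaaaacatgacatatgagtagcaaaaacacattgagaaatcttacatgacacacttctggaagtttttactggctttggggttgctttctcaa
Clec4e (chr6:123289872-123290121, minus strand): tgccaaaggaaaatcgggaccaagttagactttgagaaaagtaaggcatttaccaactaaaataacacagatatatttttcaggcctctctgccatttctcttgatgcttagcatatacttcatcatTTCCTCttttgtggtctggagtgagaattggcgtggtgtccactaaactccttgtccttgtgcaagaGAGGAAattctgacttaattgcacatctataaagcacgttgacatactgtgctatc
Trem1 (chr17:48232489-48232738, plus strand): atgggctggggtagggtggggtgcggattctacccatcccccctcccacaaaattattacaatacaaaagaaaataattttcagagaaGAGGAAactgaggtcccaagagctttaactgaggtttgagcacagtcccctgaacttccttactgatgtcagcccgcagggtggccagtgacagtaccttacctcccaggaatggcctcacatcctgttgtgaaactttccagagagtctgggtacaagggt
Treml4 (chr17:48264045-48264294, plus strand): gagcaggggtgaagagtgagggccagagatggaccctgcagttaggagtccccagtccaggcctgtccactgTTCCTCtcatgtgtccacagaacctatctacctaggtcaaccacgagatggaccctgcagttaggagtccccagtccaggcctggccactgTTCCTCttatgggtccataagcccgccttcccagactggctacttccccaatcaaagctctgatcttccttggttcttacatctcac
Trem2 (chr17:48346151-48346400, plus strand): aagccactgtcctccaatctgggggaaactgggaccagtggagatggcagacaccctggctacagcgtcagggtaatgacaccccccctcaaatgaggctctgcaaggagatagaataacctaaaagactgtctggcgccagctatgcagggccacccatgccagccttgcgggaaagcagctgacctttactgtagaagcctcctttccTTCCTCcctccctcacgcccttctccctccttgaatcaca

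Clec4b1, Clec4e and Treml4 each held the 6 letters at 2 places, Clec4d, Trem1 and Trem2 at 1 and Clec4a2 at 0. The letters therefore occurred upstream of genes that rose and of genes that fell. Of the 66 receptor genes, 52 had an entry in the promoter table, and GAGGAA on either strand was found in 17 of the 30 that rose, in 6 of the 11 that fell and in 4 of the other 11. Among all 32851 promoter stretches of that length 23.3% held it. That share is per stretch, while a receptor gene was counted if any of its listed starts matched, and 5 had more than 1. The C/EBP type motif TTGCNNAA was found in 9 of 30 genes that rose, in 2 of 11 that fell and in 1 of the other 11. It was in 9.56% of all stretches, and Clec4e held it at 1 place. The AP-1 motif TGANTCA was found in 1 of 30 that rose, 3 of 11 that fell and 2 of the other 11, beside 6.75% of all stretches. These matches describe letters only, both strands were searched in each case, and genes of one cluster can share sequence.

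Across the whole receptor group, 57 genes passed the filter on low counts and 52 of them (91.2%) passed the adjusted p of 0.05 of edgeR's quasi-likelihood test, 34 as higher and 18 as lower in the KO-labelled libraries, beside 82% of all genes tested. The median log2 fold change was 1.19 over the receptors tested and -0.06 over all genes tested. The 2 groups of libraries did not overlap for 52 of 57 receptors, beside 84.5% of all genes. A change of 2-fold or more was found for 29 receptors that rose (22.8% of all genes did so) and 14 that fell (23.8%), together 43 of 57, beside 46.6% of all genes. Changes of at least 16-fold were found for 11 of 57 receptors, 10 higher and 1 lower, beside 7.26% of all genes in either direction. Clec1a, Clec4b1, Cd300c, Cd300lg, Siglech and Lilra5 passed the filter only through the KO-labelled group, and Nlrp10 only through the Con-labelled group, so a difference in these 7 was built into the filter. Clec4b1, Cd300c, Cd300lg, Siglech and Lilra5 of this set are among the 10 higher genes of at least 16-fold. The 9 receptors that did not pass the filter were not tested and are given below by their counts. With 1 sample made of Con replicates 2 and 3 summed, 35 were higher and 18 lower.

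**Figure D1:**
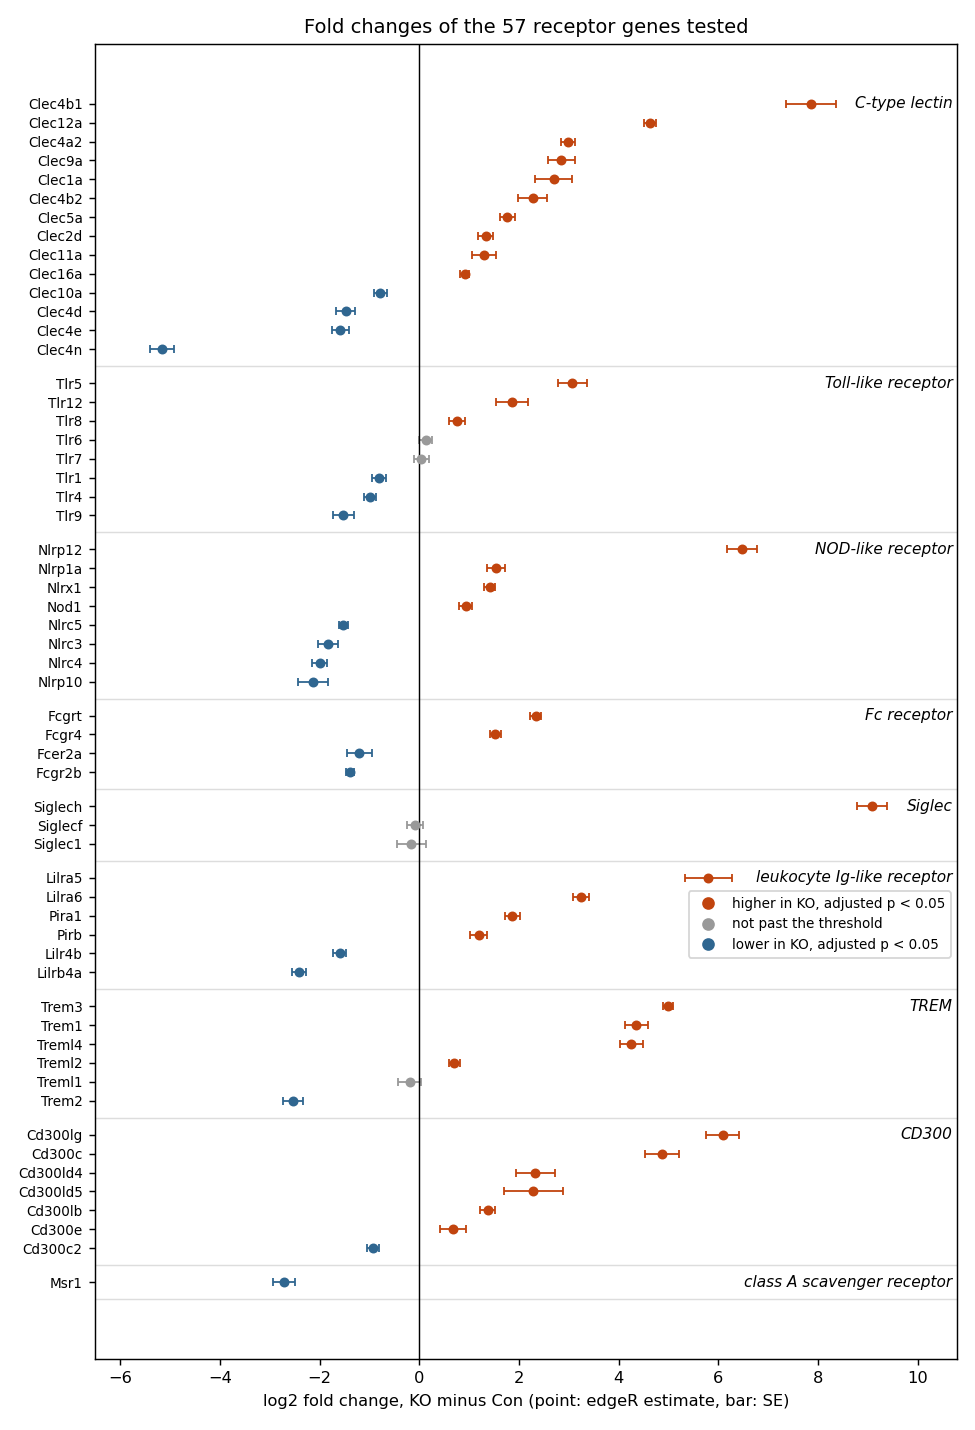
Log2 fold change, KO minus Con, of each of the 57 receptor genes tested (horizontal axis; point: edgeR estimate; bar: standard error), grouped by subfamily, with 3 libraries a group. Red marks the 34 genes higher in KO, blue the 18 lower and grey the 5 that did not pass the adjusted p of 0.05, and every subfamily of more than 3 tested genes has genes on both sides of 0.

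Although most receptors changed, the summed level of the group moved little under TMM scaling. It was 6167, 5380 and 6215 CPM in KO-labelled and 5595, 7009 and 7031 CPM in Con-labelled libraries, and the groups overlapped. This rests on the scaling, as do the sums below. As a share of all counts, the receptors held 0.5403, 0.4842 and 0.5442% in KO replicates 1 to 3. In Con replicates 1 to 3 the share was 0.6544, 0.7798 and 0.7812%, and the groups did not overlap. The makeup differed by subfamily. TREM genes summed to 1359 ± 187 CPM in KO-labelled and 344 ± 6.00 CPM in Con-labelled libraries, a ratio of 3.95. Leukocyte Ig-like receptor genes went the other way, with 1112 ± 191 CPM in KO-labelled and 2795 ± 355 CPM in Con-labelled libraries, 2.51-fold lower. C-type lectin genes summed to 2011 ± 117 and 2018 ± 332 CPM in KO-labelled and Con-labelled libraries, a difference within the spread of either group, although each of the 14 tested lectin genes passed the threshold.

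**Figure D2:**
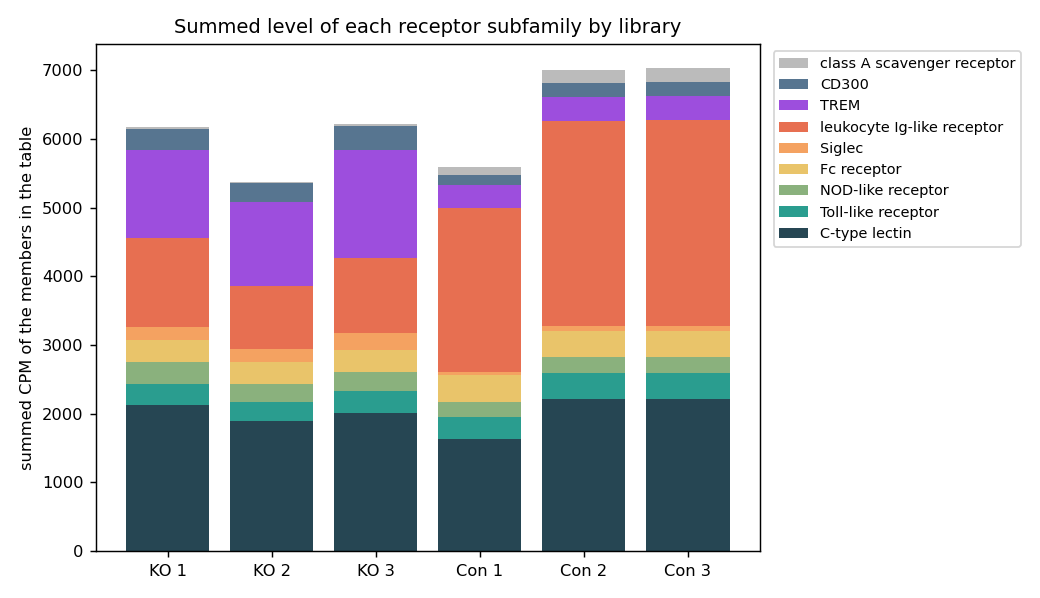
Summed CPM of the genes of each receptor subfamily (stacked vertical bars) in the 3 KO and 3 Con libraries. The TREM part is near 1359 CPM in KO and 344 CPM in Con on average, the leukocyte Ig-like part 1112 and 2795 CPM, and the C-type lectin part averages 2011 CPM in KO and 2018 CPM in Con.

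C-type lectin genes rose more often than they fell. Of 14 tested, 10 rose and 4 fell (median log2 fold change 1.55, or 2.27 with the 3 genes without a Con count set at their lower bound). The share of 14 in 14 that passed stands beside 82% of all genes. Macrophage markers, 15 in number, moved along in part: 6 fell and 9 rose, and their summed level was 1674 to 3082 CPM in KO-labelled and 18708 to 28283 CPM in Con-labelled libraries, none being at 0 in a group. Gpnmb and Mmp12 made up most of the Con-labelled sum: without these 2, chosen after their values were seen, the other 13 markers summed to 1662 to 3075 CPM in KO-labelled and 2151 to 2738 CPM in Con-labelled libraries, which overlapped. Among those 13, Adgre1, Cd68, Marco and Ms4a7 fell and the other 9 rose. Adgre1 had 149 ± 31.7 CPM in KO-labelled and 945 ± 119 CPM in Con-labelled libraries. Cd68 had 179 ± 49.8 CPM in KO-labelled and 1328 ± 184 CPM in Con-labelled libraries. All 15 neutrophil markers rose, with sums of 179655 to 207523 CPM in KO-labelled and 7845.5 to 8895 CPM in Con-labelled libraries. The part of these cells in the lectin result was not tested.

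The steepest fall belonged to Clec4n, which encodes Dectin-2, a receptor for fungal mannans that signals through the Fc receptor gamma chain. It had 6.66, 13.6 and 12.7 CPM in KO replicates 1 to 3, against 325, 423 and 434 CPM in Con replicates 1 to 3. All KO-labelled libraries lay far below all Con-labelled ones, and the log2 fold change was -5.17 (SE 0.24, adjusted p = 1.36e-07). Its neighbour Clec4e encodes Mincle, the receptor for the mycobacterial cord factor, and had 233, 195 and 257 CPM in KO-labelled libraries, against 514, 780.2 and 767 CPM in Con-labelled ones. The groups did not overlap (log2 fold change -1.59, SE 0.17), and Con replicate 1 was the lowest of its group. Clec4d, whose product MCL pairs with Mincle, had 213, 165 and 270.0 CPM in KO-labelled libraries, against 475, 656 and 667 CPM in Con-labelled ones, a log2 fold change of -1.47 (SE 0.19). Clec4e and Clec4n thus did not fall alike. Their log2 count ratio within a library, which no scaling of libraries affects, was 4.43 ± 0.64 in KO-labelled and 0.79 ± 0.11 in Con-labelled libraries (SD, n = 3 each), a difference of 3.64, or 12.5-fold (exact permutation test, two-sided, p = 0.1, the smallest that 3 against 3 allows).

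On the other side of the same cluster the genes rose. Clec4a2 encodes DCIR, an inhibitory receptor with an ITIM, and had 357, 318 and 292 CPM in KO-labelled libraries, against 32.8, 47.1 and 42.0 CPM in Con-labelled ones (log2 fold change 2.99, SE 0.14, adjusted p = 7.94e-08). Each KO-labelled library exceeded each Con-labelled one severalfold. Clec4b1, the gene of DCAR, an activating partner of the Fc receptor gamma chain, had 71, 87 and 57 counts in KO-labelled libraries and 0, 1 and 0 counts in Con-labelled ones. The ratio was 338, with a 95% counting interval of 60.0 to 13417 that covers counting error only. Clec4b1 passed the filter only through the KO-labelled group. Clec4b2, beside it, had 11.9, 7.65 and 6.95 CPM in KO-labelled and 1.44, 2.20 and 1.84 CPM in Con-labelled libraries (2.27, SE 0.28).

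The order along the chromosome was Clec4a4, Clec4b1, Clec4a2, Clec4b2, Clec4n, Clec4d and Clec4e in RefSeq, so the tested genes that rose lay together and those that fell lay together. Across all 9 clusters of neighbouring receptor genes, which hold 37 of the 66, 20 pairs of neighbours both passed the threshold, 15 of them (75.0%) in the same and 5 in opposite directions. Over all genes of the table, 58.2% of 4779 such pairs shared their direction, and the difference was not tested. Genes were taken as neighbours when at most 2 other protein-coding genes lay between them. Close relatives can share reads. None of the 7 Clec4 genes of the cluster carried a split count. Both genes did in the same-direction pairs Lilr4b and Lilrb4a, Pirb and Pira1, and Cd300ld4 and Cd300ld5.

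**Figure D3:**
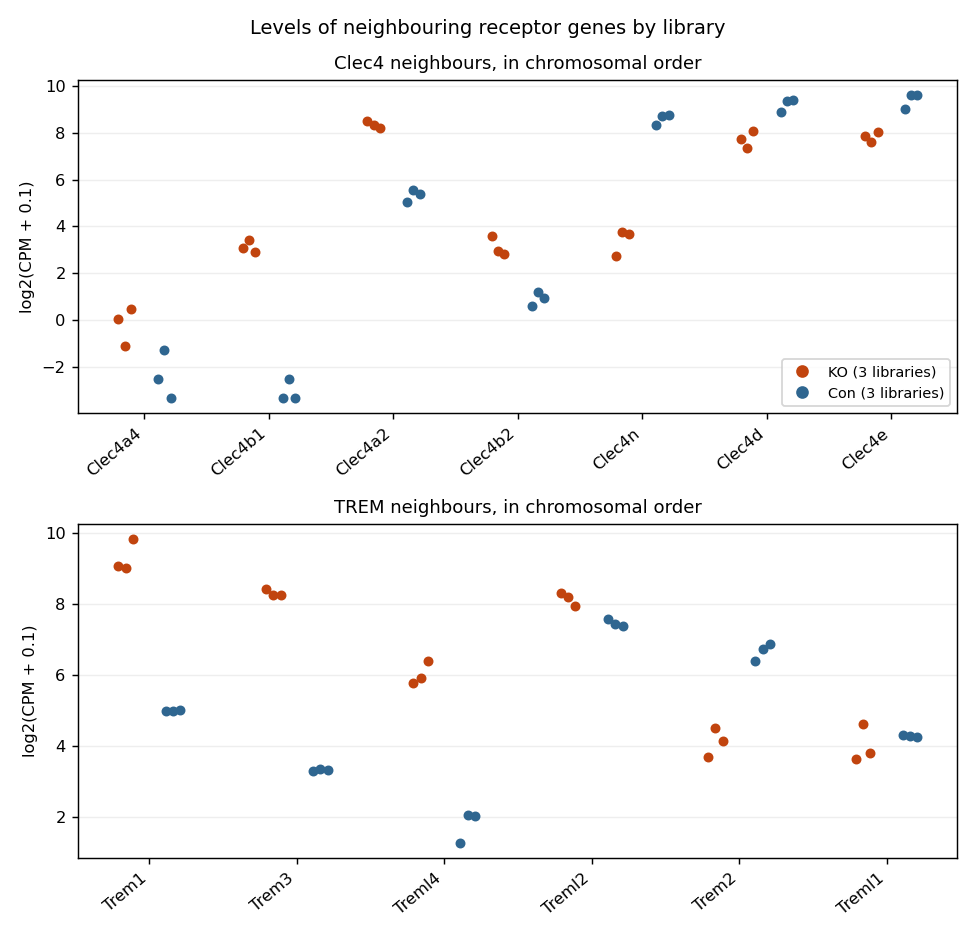
Level on the log2(CPM + 0.1) scale (vertical axis) of the receptor genes of the Clec4 cluster (upper panel) and the TREM cluster (lower panel), in chromosomal order, with 1 point for each of 3 KO libraries (red, left) and 3 Con libraries (blue, right). Clec4b1, Clec4a2 and Clec4b2 are higher and Clec4n, Clec4d and Clec4e lower in KO, and in the TREM cluster Trem1, Trem3 and Treml4 are higher and Trem2 lower.

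Other lectin genes that rose included several of dendritic cells and granulocytes. Clec12a encodes MICL, an inhibitory receptor of myeloid cells that is also known as a surface marker of human acute myeloid leukemia. It had 725, 670 and 629 CPM in KO-labelled libraries, against 23.8, 27.2 and 30.4 CPM in Con-labelled ones, and the log2 fold change was 4.64 (SE 0.12, adjusted p = 4.14e-09). Clec5a, which encodes the DAP12 partner MDL-1, had 240, 181 and 163 CPM in KO-labelled and 48.0, 61.8 and 61.6 CPM in Con-labelled libraries (1.77, SE 0.16). Clec9a, the gene of DNGR-1, by which dendritic cells detect actin filaments of dead cells, rose by 2.85 (SE 0.27) to 16.8 ± 3.78 CPM in KO-labelled libraries, against 2.32 ± 0.83 CPM in Con-labelled ones. Of the 9 dendritic cell markers in the table, 6 rose and 2 fell, with summed levels of 483 to 721 CPM in KO-labelled and 350 to 381 CPM in Con-labelled libraries. Klk1 was at 0 in the Con-labelled group and passed the filter only through the KO-labelled group. The 2 that fell were Batf3 and Bst2. Batf3 had 1.12 ± 0.47 CPM in KO-labelled and 5.84 ± 1.16 CPM in Con-labelled libraries. Most of the Con-labelled sum was Bst2, with 280 ± 18.6 CPM there and 106 ± 20.7 CPM in KO-labelled libraries. The part of dendritic cells in the rise of Clec9a was not tested.

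Of the remaining lectin genes, 4 rose and 1 fell. Clec1a rose by 2.70, Clec2d, whose product is a ligand of an inhibitory natural killer cell receptor, by 1.34, and Clec11a, which encodes a secreted growth factor, by 1.30 on the log2 scale. Clec1a passed the filter only through the KO-labelled group. Clec16a, which shares the prefix but encodes an intracellular regulator of autophagy, rose by 0.91 (SE 0.09). Clec10a, the gene of a galactose-binding lectin of macrophages and dendritic cells, had 38.2 ± 6.22 CPM in KO-labelled and 65.7 ± 7.58 CPM in Con-labelled libraries (-0.79, SE 0.13). It and Clec16a carried counts split between genes or transcripts.

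Among 7 lectin genes that did not pass the filter, Clec12b had 19, 8 and 21 counts in KO-labelled libraries and 0 in each Con-labelled one. It was at least 25.2-fold higher, with the Con-labelled group set at a floor of 3 counts over the group. The KO-labelled counts were taken as observed, so their own counting error is left out. Clec2e and Clec4f, each at 10 counts over the KO-labelled and 0 over the Con-labelled group, were each at least 5.24-fold higher on the same terms. The ratio was 15.7 (counting interval 3.82 to 139) for Clec2g and 18.9 (2.79 to 807) for Clec2m. Clec4a4 had 8, 3 and 10 counts in KO-labelled and 1, 4 and 0 in Con-labelled libraries, and Clec2l had at most 2 counts in any library. With DESeq2, or with edgeR and no filter, 16 lectin genes were higher in place of 10.

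Toll-like receptor genes showed no common direction. Of 8 tested, 3 rose and 3 fell, a share of 6 in 8 beside 82% of all genes, with a median log2 fold change of 0.09, which turned to -0.27 when only library size was scaled. Among the receptors of the cell surface, Tlr4, the receptor for bacterial lipopolysaccharide, fell. It had 89.2, 75.6 and 70.3 CPM in KO-labelled libraries, against 135, 169 and 164 CPM in Con-labelled ones (-0.99, SE 0.12, adjusted p = 3.65e-05), and the groups did not overlap. Tlr5, the receptor for flagellin, had 7.95, 4.81 and 7.85 CPM in KO-labelled and 0.83, 0.86 and 0.72 CPM in Con-labelled libraries (3.07, SE 0.30). Tlr1 and Tlr6, neighbours whose products pair with TLR2 to detect bacterial lipopeptides, carried split counts. Tlr1 had 19.4, 20.2 and 14.4 CPM in KO-labelled and 30.0, 32.1 and 32.6 CPM in Con-labelled libraries (-0.81, SE 0.14). Tlr6 had 32.5 ± 4.96 and 29.7 ± 2.34 CPM there, overlapped between groups and did not pass (0.13, SE 0.13, adjusted p = 0.363, and -0.23 when only library size was scaled).

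The endosomal receptors, which detect nucleic acids, likewise split. Tlr9, the receptor for unmethylated CpG DNA, had 6.08, 5.68 and 10.04 CPM in KO-labelled libraries, against 23.5, 19.3 and 19.8 CPM in Con-labelled ones (-1.53, SE 0.21). Tlr8, a receptor for RNA, had 73.6, 67.4 and 80.4 CPM in KO-labelled and 32.3, 49.0 and 49.7 CPM in Con-labelled libraries (0.76, SE 0.16). Tlr7, its neighbour on the X chromosome, did not pass, with 72.3, 75.1 and 81.1 CPM in KO-labelled and 55.8, 81.9 and 84.9 CPM in Con-labelled libraries (0.04, SE 0.15, adjusted p = 0.818). Its direction turned when only library size was scaled (-0.31) and under upper-quartile scaling (-0.048). The log2 count ratio of Tlr9 to Tlr7, free of scaling, was -3.43 ± 0.37 in KO-labelled and -1.81 ± 0.49 in Con-labelled libraries (difference -1.62, exact permutation p = 0.1, the smallest possible). Tlr12, a receptor for a protein of protozoan parasites in mouse, rose by 1.87 (SE 0.32), and its partner Tlr11 had 5, 4 and 10 counts in KO-labelled and 0, 1 and 2 counts in Con-labelled libraries, a ratio of 9.96 (counting interval 2.93 to 52.6).

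Partners of the Toll-like receptors held both directions too. Of 24 adaptors, kinases and chaperones listed, 16 were in the table and 15 were tested, of which 5 rose and 8 fell (median -0.29). The share of 13 in 15 is near the 82% of all genes. Myd88, the adaptor that nearly all of these receptors use, had 206 ± 1.10 CPM in KO-labelled and 79.9 ± 3.82 CPM in Con-labelled libraries (1.37, SE 0.08), and Tirap, which bridges it to TLR4, rose by 1.40 (SE 0.10). Lbp, the carrier that passes lipopolysaccharide on, rose by 2.87 (SE 0.12). Ticam1, which encodes TRIF, the adaptor of the interferon branch, had 22.2 ± 1.32 CPM in KO-labelled and 62.5 ± 1.05 CPM in Con-labelled libraries (-1.49, SE 0.09). Irak3, an inhibitor of the pathway, fell by 1.22 and Cd36, a coreceptor for lipids, fell by 3.35 (SE 0.27).

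All 8 NOD-like receptor genes passed the threshold, 4 as higher and 4 as lower (median -0.30), beside 82% of all genes. Nlrp12, known as a brake on NF-kB signalling in myeloid cells, rose most. It had 95.1, 56.6 and 66.0 CPM in KO-labelled libraries, against 1.06, 0.47 and 0.88 CPM in Con-labelled ones, and the log2 fold change was 6.47 (SE 0.30, adjusted p = 1.03e-07). The lowest KO-labelled library was far above the highest Con-labelled one. Nlrp1a, which forms an inflammasome, the complex that activates caspase-1, had 15.2, 17.3 and 20.2 CPM in KO-labelled and 4.92, 6.92 and 6.16 CPM in Con-labelled libraries (1.55, SE 0.18), with split counts. Nlrx1, a mitochondrial member, had 94.3, 74.9 and 75.3 CPM in KO-labelled and 29.2, 30.5 and 32.0 CPM in Con-labelled libraries (1.41, SE 0.11). Nod1, a sensor of bacterial peptidoglycan, rose by 0.93 (SE 0.13).

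The 4 that fell included all 3 Nlrc genes in the table. Nlrc4, the inflammasome protein that acts with NAIP sensors of flagellin, had 8.41, 10.2 and 7.98 CPM in KO-labelled libraries, against 29.6, 40.3 and 36.9 CPM in Con-labelled ones (-2.0015, SE 0.16). Nlrc5, the activator of class I histocompatibility genes, had 34.5, 32.9 and 37.8 CPM in KO-labelled and 108, 97.6 and 97.6 CPM in Con-labelled libraries (-1.53, SE 0.09). Nlrc3, known as a dampener of immune signalling, had 5.28 ± 1.69 CPM in KO-labelled and 18.8 ± 1.63 CPM in Con-labelled libraries (-1.83, SE 0.21), with split counts. Nlrp10, a member without the ligand-binding repeats, had 6 counts in each KO-labelled library and 45, 47 and 34 counts in Con-labelled ones (-2.13, SE 0.30). It passed the filter only through the Con-labelled group. All of these kept the groups apart in every library.

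Of 18 listed inflammasome partners, 10 were tested, and 4 rose and 3 fell (median 0.02, or -0.33 when only library size was scaled), a share of 7 in 10 beside 82% of all genes. Il18, the gene of a cytokine that caspase-1 matures, had 34.8 ± 7.12 CPM in KO-labelled and 6.18 ± 0.53 CPM in Con-labelled libraries (2.49, SE 0.18). Nek7, a partner of NLRP3, rose by 0.69 and Card9, an adaptor shared with the lectin receptors, by 1.12. Ripk2, the kinase of NOD1 and NOD2, had 22.4 ± 3.74 CPM in KO-labelled and 76.02 ± 6.38 CPM in Con-labelled libraries (-1.77, SE 0.13). Casp4, the gene of a caspase that binds lipopolysaccharide in the cytosol, fell by 1.26 (SE 0.14), and Ninj1, which acts in membrane rupture, fell by 0.74. Casp1 itself did not pass, with 80.0 ± 5.94 CPM in KO-labelled and 93.2 ± 11.8 CPM in Con-labelled libraries (adjusted p = 0.0892), and is named after its values were seen.

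Fc receptor genes divided into 2 that rose and 2 that fell (median 0.16, or -0.19 when only library size was scaled), and all 4 passed, beside 82% of all genes. Fcgr4, an activating IgG receptor of neutrophils and monocytes, had 121, 106 and 106 CPM in KO-labelled libraries, against 33.6, 40.2 and 41.5 CPM in Con-labelled ones (1.53, SE 0.11). Its chromosomal neighbour Fcgr2b, the inhibitory IgG receptor, had 125, 112 and 124 CPM in KO-labelled and 332, 313 and 310 CPM in Con-labelled libraries, with split counts (-1.40, SE 0.08, adjusted p = 2.83e-07). No library overlapped with the other group for either gene. Fcgrt, the neonatal Fc receptor that recycles IgG and albumin, had 75.8, 96.6 and 88.8 CPM in KO-labelled and 15.8, 18.3 and 17.8 CPM in Con-labelled libraries (2.33, SE 0.12). Fcer2a, the gene of the low-affinity IgE receptor CD23, had 4.44, 4.81 and 6.95 CPM in KO-labelled and 16.4, 10.1 and 10.64 CPM in Con-labelled libraries (-1.20, SE 0.25). Among the 6 B lineage markers in the table, 3 rose and none fell by the edgeR test, with sums of 100.3 to 264 CPM in KO-labelled and 61.5 to 99.9 CPM in Con-labelled libraries. Unadjusted p-values under 0.05 also gave 0 lower, as did DESeq2. The 3 that rose, Vpreb1, Rag1 and Dntt, passed the filter only through the KO-labelled group, so a difference in them was built into the filter. The others, Cd79b, Ms4a1 and Cd22, did not pass the threshold (log2 fold changes 0.57, -0.50 and -0.18). The part of B cells in the fall of Fcer2a was not tested.

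Siglec genes held the highest fold change of all the receptors. Siglech encodes a DAP12-coupled receptor of plasmacytoid dendritic cells, and had 133, 121 and 188 CPM in KO-labelled libraries, against 0.38, 0.24 and 0.16 CPM in Con-labelled ones. The Con-labelled values rest on 5, 3 and 2 counts. The log2 fold change was 9.08 (SE 0.30, adjusted p = 1.72e-08). Siglech passed the filter only through the KO-labelled group, so a difference in it was built into the filter. Siglec1, the macrophage sialoadhesin CD169, overlapped between groups, with 27.7, 47.3 and 41.8 CPM in KO-labelled and 25.3, 53.4 and 51.7 CPM in Con-labelled libraries (-0.16, SE 0.29, adjusted p = 0.618). Siglecf, a receptor of eosinophils, had 14.8 ± 2.61 CPM in KO-labelled and 15.7 ± 1.62 CPM in Con-labelled libraries (-0.08, SE 0.16, adjusted p = 0.637). All 6 eosinophil markers tested rose, with sums of 1389 to 1696 CPM in KO-labelled and 444 to 509 CPM in Con-labelled libraries. Siglecl1 was not tested, with 9, 6 and 5 counts in KO-labelled and 0 in each Con-labelled library. It was at least 10.5-fold higher with the same floor and the KO-labelled counts taken as observed. Of the 3 Siglec genes tested, 1 passed, beside 82% of all genes, and 0 were lower at an unadjusted p of 0.05 or by DESeq2.

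Leukocyte Ig-like receptor genes split by cluster. The pair on chromosome 10 fell. Lilrb4a encodes the inhibitory receptor gp49B and had 413, 314 and 355 CPM in KO-labelled libraries, against 1636, 2051 and 2059 CPM in Con-labelled ones (-2.41, SE 0.14, adjusted p = 2.38e-07). Its close copy Lilr4b, which encodes gp49A, had 260, 199 and 213 CPM in KO-labelled and 580, 718 and 727 CPM in Con-labelled libraries (-1.59, SE 0.13). Both carried split counts, so the single values are uncertain. Each was lower in every KO-labelled than in any Con-labelled library. Because the 2 can share reads, their common direction does not lessen that uncertainty.

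The paired immunoglobulin-like receptor genes on chromosome 7 rose, the inhibitory one included. Pirb, with an ITIM, had 527, 329 and 420.2 CPM in KO-labelled libraries, against 153, 206 and 200.3 CPM in Con-labelled ones (1.19, SE 0.18). Pira1, its activating counterpart, had 59.6, 43.2 and 53.4 CPM in KO-labelled and 11.7, 15.5 and 15.6 CPM in Con-labelled libraries (1.87, SE 0.16), and Lilra6 had 46.04, 39.6 and 54.1 CPM in KO-labelled and 4.77, 4.40 and 5.60 CPM in Con-labelled ones (3.24, SE 0.16). These 3 also carried split counts. Lilra5 had 31, 28 and 28 counts in KO-labelled libraries and 1, 1 and 0 counts in Con-labelled ones, a ratio of 68.4 (counting interval 18.4 to 574). It passed the filter only through the KO-labelled group. The inhibitory genes Pirb and Lilrb4a thus moved apart. Their log2 count ratio was 0.22 ± 0.14 in KO-labelled and -3.36 ± 0.05 in Con-labelled libraries, a difference of 3.58 (exact permutation p = 0.1). Of the 6 genes, 4 rose and 2 fell (median 1.53), all past the threshold, beside 82% of all genes.

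TREM genes lie side by side on chromosome 17, and 4 of the 6 rose, 1 fell and 1 did not pass (median 2.48), a share of 5 in 6 beside 82% of all genes. Trem1, which amplifies inflammatory responses of neutrophils and monocytes through DAP12, had 537, 518 and 904 CPM in KO-labelled libraries, against 31.7, 31.6 and 32.2 CPM in Con-labelled ones (4.36, SE 0.23, adjusted p = 2.68e-07). KO replicate 3 stood above KO replicates 1 and 2, and all 3 lay far above the Con-labelled libraries. Trem3, another DAP12 partner in mouse, had 344, 306 and 306 CPM in KO-labelled and 9.85, 10.1 and 9.997 CPM in Con-labelled libraries (5.00, SE 0.10), and Treml4 had 54.6, 60.9 and 84.4 CPM in KO-labelled and 2.35, 4.09 and 4.00 CPM in Con-labelled ones (4.26, SE 0.24).

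Trem2 went the other way. It encodes a DAP12-coupled lipid receptor of macrophages and microglia, and had 12.9, 22.8 and 17.8 CPM in KO-labelled libraries, against 84.3, 107 and 118 CPM in Con-labelled ones (-2.53, SE 0.20, adjusted p = 2.97e-06). The log2 count ratio of Trem1 to Trem2 was 5.18 ± 0.61 in KO-labelled and -1.68 ± 0.24 in Con-labelled libraries (SD, n = 3 each), a difference of 6.86, or 116-fold (exact permutation p = 0.1). The 4 usable ratios of the 12 listed (Clec4e to Clec4n, Tlr9 to Tlr7, Pirb to Lilrb4a, and Trem1 to Trem2) each had an adjusted p of 0.1, the smallest this design allows. In the same libraries the neutrophil markers were higher, and the macrophage sum was lower, mostly through Gpnmb and Mmp12. Of the 15 macrophage markers, 9 rose and 6 fell, with Adgre1, Cd68, Marco and Ms4a7 also among those that fell. Monocyte markers rose in 6 of 7 cases, with sums of 3146 to 4383 CPM in KO-labelled and 401 to 535 CPM in Con-labelled libraries, none being at 0 in a group. The part of these cells in the difference was not tested.

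Treml2 had 318, 294 and 247 CPM in KO-labelled libraries, against 190, 172 and 167 CPM in Con-labelled ones, a small rise of 0.70 (SE 0.11) with no overlap. Treml1, a receptor stored in platelet granules, did not pass, with 12.4, 24.8 and 13.9 CPM in KO-labelled and 19.9, 19.5 and 19.0 CPM in Con-labelled libraries (-0.19, SE 0.23, adjusted p = 0.458). Without KO replicate 2, the highest of the 6, it fell by 0.57 (adjusted p = 0.00423). Of 5 platelet markers tested, 3 rose and 1 fell, and their sums of 134 to 259 CPM in KO-labelled and 204 to 236 CPM in Con-labelled libraries overlapped. Most of the Con-labelled sum was Vwf, the 1 that fell, with 184 ± 19.8 CPM there and 22.5 ± 6.03 CPM in KO-labelled libraries.

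CD300 genes, a family of lipid-sensing receptors clustered on chromosome 11, rose in 6 of 7 cases and fell in 1 (median 2.29), all past the threshold, beside 82% of all genes. Cd300lg, whose product is an adhesion receptor of endothelium, had 18.9, 17.8 and 29.6 CPM in KO-labelled libraries, against 0.38, 0.24 and 0.32 CPM in Con-labelled ones (6.09, SE 0.33, adjusted p = 1.97e-07). It and Cd300c passed the filter only through the KO-labelled group, so a difference in them was built into the filter. Markers of endothelium and stroma rose in 7 of 8 cases and fell in 1, Sele being at 0 in the Con-labelled group, with sums of 346 to 540 CPM in KO-labelled and 384 to 388 CPM in Con-labelled libraries. Most of the Con-labelled sum was Pecam1, the 1 marker that fell, with 371 ± 5.27 CPM there and 79.3 ± 12.7 CPM in KO-labelled libraries. The part of endothelium and stroma in the rise of Cd300lg was not tested. Cd300c had 7.95, 6.91 and 11.5 CPM in KO-labelled and 0.30, 0.24 and 0.32 CPM in Con-labelled libraries (4.88, SE 0.34). Cd300lb, an activating member that uses DAP12, had 211, 160 and 223 CPM in KO-labelled and 61.7, 82.3 and 85.5 CPM in Con-labelled libraries (1.37, SE 0.16).

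Cd300ld4 and Cd300ld5, close relatives with split counts, varied widely among libraries. Cd300ld4 had 5.03, 8.51 and 3.47 CPM in KO-labelled and 0.76, 1.49 and 1.12 CPM in Con-labelled libraries (2.33, SE 0.39), and Cd300ld5 had 7.46 ± 4.18 CPM in KO-labelled and 1.51 ± 1.04 CPM in Con-labelled ones (2.29, SE 0.59). Cd300e, an activating receptor of monocytes, had 8.998, 11.8 and 12.1 CPM in KO-labelled and 4.32, 8.72 and 7.52 CPM in Con-labelled libraries (0.68, SE 0.26, adjusted p = 0.0327). That call was lost when only library size was scaled (adjusted p = 0.227), under upper-quartile scaling (0.05), and without Con replicate 1, KO replicate 2 or KO replicate 3 (0.0658, 0.099 and 0.0898). Cd300c2 alone fell, with 48.1, 55.4 and 51.1 CPM in KO-labelled libraries, against 81.9, 107 and 107 CPM in Con-labelled ones (-0.94, SE 0.12).

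Msr1, which encodes the class A scavenger receptor for modified lipoproteins on macrophages, fell. It had 22.0, 25.2 and 31.1 CPM in KO-labelled libraries, against 118, 200 and 195 CPM in Con-labelled ones (-2.71, SE 0.22, adjusted p = 4.17e-06). No library overlapped with the other group, and Con replicate 1 was the lowest of its group, as it was for 12 of the 18 receptors that fell.

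**Figure D4:**
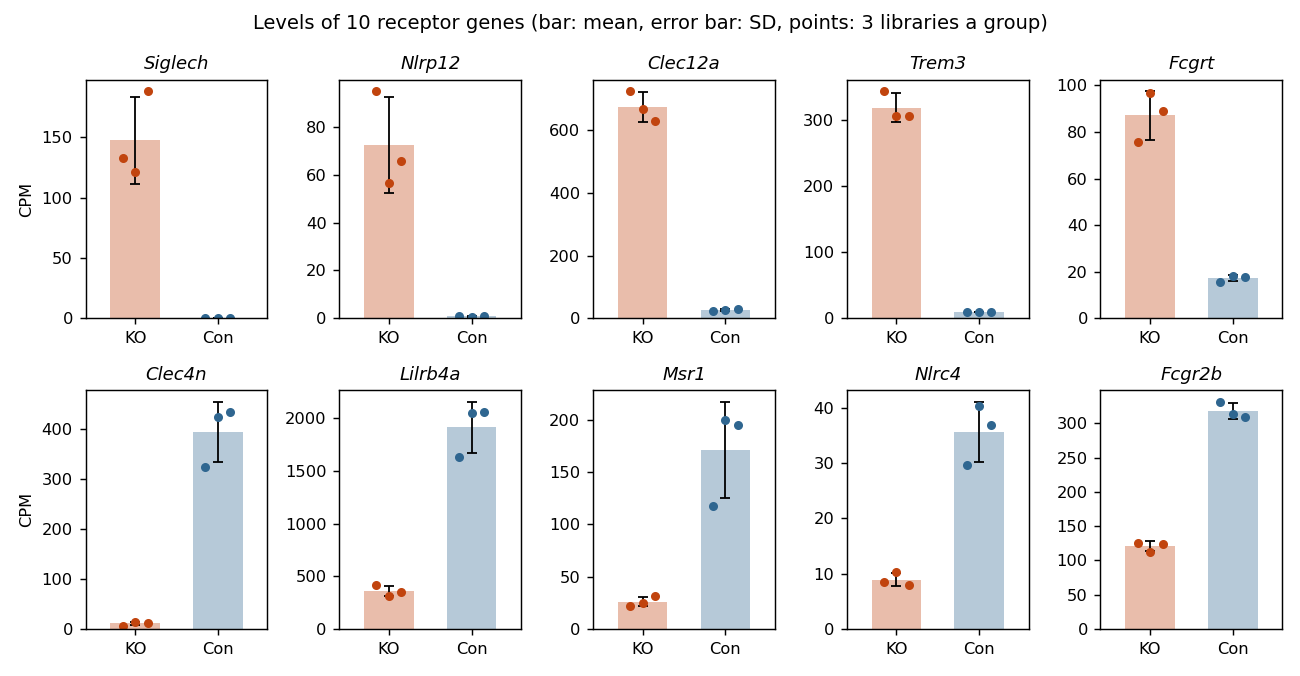
Level in CPM (vertical axes from 0) of 10 receptor genes, 5 higher in KO in the upper row and 5 lower in KO in the lower row, in 3 KO and 3 Con libraries (points), with the mean (bar) and SD (error bar). In each panel the 3 KO points lie apart from the 3 Con points.

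Set out by signalling type, both activating and inhibitory receptors held genes that rose and genes that fell. Of 29 activating genes listed, 15 were in the table and tested, of which 10 rose and 5 fell (median 1.77). Siglech and Lilra5, 2 of the 10 that rose, passed the filter only through the KO-labelled group, so a difference in them was built into the filter. Of 13 inhibitory genes listed, 8 were in the table and 7 were tested. Of these 7, 3 rose (Clec12a, Clec4a2 and Pirb) and 2 fell (Lilrb4a and Fcgr2b), with a median of -0.08, or 0.55 with Clec12b at its bound. That median turned to between 0.54 and 0.69 under 7 alternatives, and was -0.44 when only library size was scaled. All 15 and 5 of 7 passed, beside 82% of all genes, 39.6% as higher and 42.4% as lower. The activating genes that fell were Clec4n, Clec4e, Clec4d, Trem2 and Cd300c2. Summed levels were 2266 ± 346 CPM in KO-labelled and 2117 ± 377 CPM in Con-labelled libraries for the activating genes, and 1938 ± 212 and 2523 ± 267 CPM there for the inhibitory ones. The difference between the types was not tested.

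Of 20 listed genes of ITAM signalling, 11 were in the table and tested. Of these, 8 rose and 2 fell (median 1.12), beside 39.6% and 42.4% of all genes. Neutrophil and monocyte markers and Ptprc were higher in the same libraries, as given above, and their part in this was not tested. Tyrobp, which encodes DAP12, had 1479 ± 177 CPM in KO-labelled and 409 ± 16.4 CPM in Con-labelled libraries (1.86, SE 0.11). Fgr, which encodes a Src family kinase, rose by 4.26 (SE 0.13). Malt1, the protease of the CARD9 complex, had 73.4 ± 7.64 CPM in KO-labelled and 232 ± 9.74 CPM in Con-labelled libraries (-1.66, SE 0.09), and the adaptor gene Lat2 fell by 1.85 (SE 0.15). Of 9 listed genes downstream of inhibitory receptors, 4 were in the table, and all 4 rose, beside 39.6% of all genes. The adaptor gene Dok3 had 330 ± 19.2 CPM in KO-labelled and 42.6 ± 2.40 CPM in Con-labelled libraries (2.95, SE 0.09), and Csk and Inpp5d, the gene of the phosphatase SHIP1, rose by 0.66 and 0.68. None of the 4 was lower by edgeR, at an unadjusted p of 0.05 or by DESeq2.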

How the data were processed

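Per the labels' protocols, marrow RNA came from a TRIzol extraction, and a BGI kit for mRNA gave the libraries. The deposited table holds expected counts of reads per gene, not scaled, per the file headers. Of its 9295 genes, 1449 (15.6%), 17 receptors among them, carry a count that is not whole, so reads were split between genes or transcripts and values of close copies are uncertain. For the aligner, the counter and the strand setting, nothing is given in the sources used here. GRCh38, a human build, is named in the submitters' processing notes, while the gene IDs are those of mouse, so no position was taken from that build. Gene order came from RefSeq, and the upstream stretches and their printed positions from RefSeq on GRCm38.p6. All 6 value columns matched a library by name, and 0 were unused.

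Counts were rounded to whole numbers and KO was compared with Con on all genes with edgeR 4.0.16 in R 4.3.3 (TMM, filterByExpr by group, robust quasi-likelihood, two-sided), with Benjamini-Hochberg adjustment over 8358 genes. The filter asks for about 0.951 CPM in 3 libraries. SE is the log2 fold change over the root of F. Errors are SD over 3 libraries. A group with 0 counts was set at 3 counts over the group, with the counts of the other group taken as observed. A group of 1 to 3 counts got an exact 95% interval. Both cover counting error only, because the reads carry no molecular identifiers, and the floor covers that of the group at 0 alone. Ratios within a library used a pseudocount of 0.5. The test was checked on simulated data.

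Alternatives were DESeq2 1.42.0, limma-voom (limma 3.58.1), 3 scalings, 2 filters, a 2-fold limit, a replicate block, leaving out each library and summing Con replicates 2 and 3. The receptors, lists, pairs and alternatives were chosen with earlier results of these data known. Receptors described in detail are mainly, in each subfamily, the 3 of highest and the 3 of lowest fold change among those past the threshold and the 2 of highest mean CPM; any receptor could be named. Of pathway lists, the 3 of smallest p in each direction were chosen; 1 of these genes and a further motif search are not reported here.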

Additional observations from a re-analysis of the deposited data

How the results depend on the processing

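Over all receptors, 29 to 42 were higher and 14 to 19 lower in KO under the alternatives, beside 34 and 18. Leaving out 1 library gave 33 to 35 and 18 to 19. The replicate block gave 34 and 18 and changed no list count beyond 1.5 times. Same-numbered libraries of the 2 groups correlated at -0.0037 to 0.0277 in their deviations from the group means, and KO replicate 1 correlated best with Con replicate 2 (0.0354), so the numbers were not taken to pair the samples. With library size only, the median of all log2 fold changes shifted by -0.36. Of the receptor values under alternatives, 839 kept their direction and side of the threshold, 9 turned their sign, 5 lost and 2 gained the call.

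DESeq2 and the lack of a filter each gave 16 higher C-type lectins in place of 10 and 2 higher Siglecs in place of 1, because more genes of low count were tested. Library size only gave 1 lower Siglec (Siglecf, -0.44, adjusted p = 0.0272) in place of 0 and 5 lower inflammasome partners in place of 3. Without 1 library, the lower TREM genes were 1 to 2. Asking for a 2-fold change as well left 0 lower CD300 genes (of 1), 1 lower Toll-like receptor (of 3), 0 lower surface Toll-like receptors (of 2), 1 higher endosomal one (of 2), 5 lower Toll-like partners (of 8), 2 higher inflammasome partners (of 4) and 1 higher gene below inhibitory receptors (of 4), by construction. Signs turned for genes that had not passed. Siglec1 ranged from -0.42 to 0.03 and Siglecf from -0.22 to 0.04 without 1 library (0.0338 and 0.0346, and 0.0093 and 0.0388, where turned). Tlr6 was -0.23 with library size only. Tlr7 was -0.31 there, -0.048 with upper-quartile scaling and -0.12 to 0.16 without 1 library (-0.0090 without KO replicate 3). The cause of these turns was not tested. The 4 count ratios kept their sign throughout. Genes near the filter limit of 0.951 CPM rest on few counts and are imprecise.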
